A study of Mus musculus with 14 samples.

Results

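Thymocytes in which the tumour suppressor gene Trp53 had been deleted were set against WT thymocytes at 3 early stages of T cell development. The comparison used 6 of the 14 arrays of the series, chosen by the genotype and stage in their labels. They were 3 p53-deleted arrays (p53Δ/Δ) and 3 WT arrays, with 1 array per stage in each genotype. DN1 cells carry CD44 without CD25 on their surface, DN2 cells carry both, and DN3 cells carry CD25 without CD44. The labels and the design give all cells as CD4-CD8- thymic cells of C57BL/6 strain, sorted 3 months after lethally irradiated CD45.1+ wild-type mice received total bone marrow. The treatment protocol speaks instead of bone marrow cells being stained and sorted, and the sample labels were followed here.

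The p53-deleted marrow came from p53flox/flox;Cre-ERT2 mice, and the WT marrow came from mice with Cre-ERT2 alone, so both carried the recombinase. Cre-ERT2 is a Cre recombinase that enters the nucleus after tamoxifen treatment, and the genes were deleted 4 weeks after transplantation. The sources used here do not give the promoter that drives Cre-ERT2, the number of mice per array or their age. Other arrays at the same 3 stages and with the same treatment served for comparison: 3 Ezh2-deleted arrays (Ezh2flox/flox;Cre-ERT2) and 3 arrays of cells that lack both Ezh2 and p53 (Ezh2Δ/Δp53Δ/Δ). Ezh2 methylates histone H3 as the enzymatic subunit of the Polycomb complex PRC2, which keeps developmental genes silent. Host cells that survive irradiation were not measured separately.

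p53 is a transcription factor that DNA damage, oncogene activity and a lack of nucleotides stabilise. It raises genes for cell cycle arrest (Cdkn1a, also called p21), cell death (Bax, Bbc3) and its own turnover (Mdm2, the ubiquitin ligase that degrades p53). The Cdkn2a locus encodes p19Arf, which blocks Mdm2, and p16Ink4a, which blocks CDK4 and CDK6. In developing thymocytes, rearrangement of the T cell receptor genes makes DNA breaks, and mice without p53 are known for thymic lymphomas.

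Levels are log2 of the processed signal minus log2 of the 75th percentile of the array, so 0 is the 75th percentile and each unit is a factor of 2. All 3 p53-deleted arrays lay on 1 slide together with the 3 Ezh2-deleted arrays, and all 3 WT arrays lay on another slide together with the DN2 and DN3 arrays that lack both genes. The DN1 array that lacks both genes lay on a further slide, with none of the p53-deleted or WT arrays. Slide and genotype therefore cannot be told apart in the difference between p53-deleted and WT cells. The 75th percentile itself was 80.8 to 122.6 intensity units on the p53-deleted arrays, against 270.9 to 276.8 on the WT arrays. The share of probes well above background ran from 43.6% to 45.6% on the p53-deleted arrays, against 44.3% to 50.2% on the WT arrays. Defining thymocyte markers were present on all 6 arrays: Cd3e lay between 7.89 and 8.16 in p53-deleted cells and between 5.96 and 7.40 in WT cells, and Thy1 lay between 9.13 and 9.41 in p53-deleted cells and between 7.51 and 8.73 in WT cells. The gate marker Il2ra, which encodes CD25, was at 0.91 in p53-deleted DN1 cells and at 0.52 in WT DN1 cells. It was at 5.38 or more at DN2 and DN3 in both genotypes. The other gate marker, Cd44, was at 2.86 (DN1), 3.70 (DN2) and -1.90 (DN3) in p53-deleted cells. In WT cells Cd44 was at 2.93, 1.25 and -0.41. At DN3, p53-deleted and WT cells had Kit at 2.92 and 0.26, Ptcra at 4.05 and 5.99, and Rag1 at 4.85 and 5.25. Whether the gates held like cells in both genotypes was not tested. Cd4 transcript was well above background on all 6 arrays, at 2.84 to 3.92 in p53-deleted cells and 2.59 to 3.10 in WT cells, in cells sorted as CD4-.

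Of 27056 features tested, 16.7% were higher and 19.8% were lower in p53-deleted than in WT cells at an adjusted p under 0.05 (limma, genotype and stage as additive terms over the 12 non-leukemic arrays). Within 1 slide, between p53-deleted and Ezh2-deleted cells, 1.71% were higher and 2.27% were lower. By their sex-linked transcripts, given below, the Ezh2-deleted cells were female and the p53-deleted and WT cells male. Sex therefore cannot be told apart from genotype in that comparison. A further fit, chosen after seeing the data, took slide as a block and treated the Ezh2 and p53 deletions as effects that add. It called 1.72% of features higher and 1.48% lower with p53 deletion. It holds no direct comparison of p53-deleted with WT cells, which lie on different slides. Its value draws on p53-deleted against Ezh2-deleted cells in 1 slide and on cells that lack both genes against WT in the other. An effect of losing both genes together, or of the difference in sex, would therefore enter its value. These shares are the background for every count of genes that follows. For counts at an unadjusted p under 0.05 the background is far larger. About 12700 of the 27056 features passed it across slides, about 5250 against Ezh2-deleted cells and about 6060 with slide as a block. The gene lists hold named genes only. Of the 14243 named genes, 2886 were higher and 2006 lower across slides, with a median difference of 0.27 against 0.09 over all features. Against Ezh2-deleted cells 203 named genes were higher and 473 lower, with a median of -0.12. With slide as a block 2.31% of named genes were higher and 1.46% lower, with a median of -0.03. The difference across slides is given first. For many results a value measured within a slide, or the value with slide as a block, stands beside it. Where neither is given, slide and genotype cannot be told apart. The 3 stages of a genotype stand in for replicates, and the stage term takes out changes with stage that all genotypes share. A p-value here therefore reflects how steady the differences between genotypes were over the stages, judged over all 12 arrays. It says nothing of differences among mice. These are bulk samples, and fewer cells of a type and less RNA per cell cannot be told apart.

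Trp53 was at -3.49, -5.34 and -4.84 in p53-deleted cells (DN1, DN2 and DN3, the order of all such triplets), and at 0.11, 1.03 and 1.28 in WT cells. It was not well above background on any p53-deleted array and was so on every WT array, so the groups did not overlap. Trp53 was at least 19.0-fold lower in p53-deleted cells (fitted log2 difference -5.37 ± 0.75 SE, limma adjusted p = 7.34e-04). Such a bound divides the bright arrays' mean by the dimmest signal that still counts as above background, or by the dim probe's own signal where that is higher. Within the slide, Trp53 in Ezh2-deleted cells was at 0.68, 1.68 and 1.24, and the difference between p53-deleted and Ezh2-deleted cells was -5.76 (adjusted p = 0.00532). In cells that also lack Ezh2, Trp53 was at -3.86, -2.40 and -0.48, so the DN3 array of that genotype kept more signal than the others. With slide as a block the difference was -4.02 (adjusted p = 0.00909). The sources used here do not place the probe relative to the floxed exons.

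**Figure D1:**
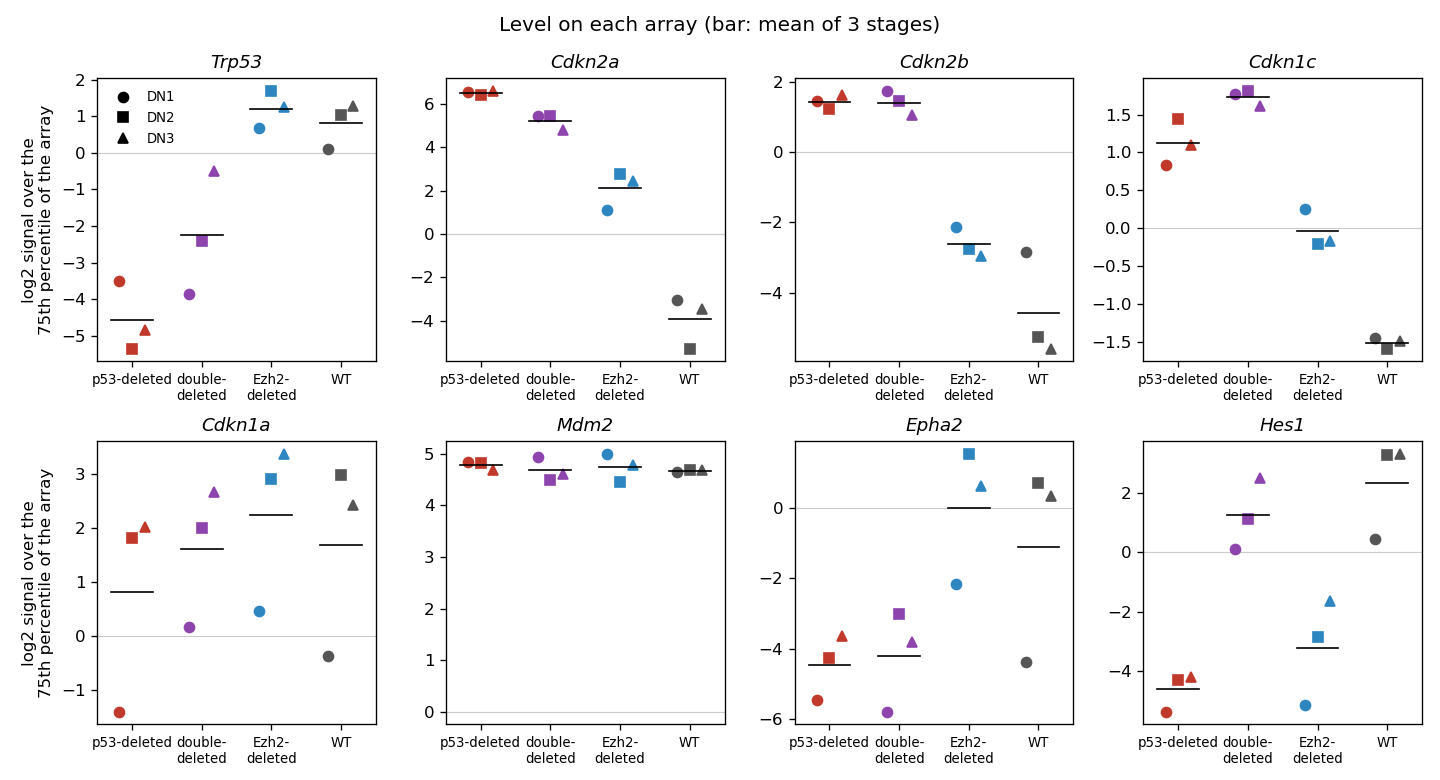
Level of 8 genes on each array, with the log2 signal over the 75th percentile of the array on the vertical axis and the genotypes on the horizontal axis, where "double-deleted" lacks Ezh2 and p53. Symbols stand for DN1, DN2 and DN3 and bars for the mean of the 3 arrays: Cdkn2a lies at 6.40 to 6.57 in p53-deleted cells and at -5.28 to -3.05 in WT cells, while Hes1 is low on the p53-deleted and Ezh2-deleted arrays, which share a slide.

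Inhibitors of cyclin-dependent kinases were among the genes that rose, and Cdkn2a, Cdkn2b and Cdkn1c were higher with slide as a block as well. The promoter windows of 3 genes from RefSeq (GRCm38.p6; 250 bases before to 50 bases after 1 annotated start of each gene) are shown for the inhibitors that follow. Cdkn1a, at chr17:29090729-29091028 on the + strand, is shown because it is the classic p53 target, with the pair CATGNNNNNNCATG in capitals at its fixed letters. Cdkn2a, at chr4:89294570-89294869 on the - strand, and Cdkn2b, at chr4:89310983-89311282 on the - strand, are shown because they are neighbours that PRC2 is known to silence and that rose together, with each CG dinucleotide in capitals.
Cdkn1a: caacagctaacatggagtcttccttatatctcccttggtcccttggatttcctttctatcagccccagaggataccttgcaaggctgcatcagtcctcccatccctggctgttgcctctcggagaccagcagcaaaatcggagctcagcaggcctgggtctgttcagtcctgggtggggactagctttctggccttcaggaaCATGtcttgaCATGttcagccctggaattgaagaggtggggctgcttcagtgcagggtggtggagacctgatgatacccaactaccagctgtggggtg
Cdkn2a: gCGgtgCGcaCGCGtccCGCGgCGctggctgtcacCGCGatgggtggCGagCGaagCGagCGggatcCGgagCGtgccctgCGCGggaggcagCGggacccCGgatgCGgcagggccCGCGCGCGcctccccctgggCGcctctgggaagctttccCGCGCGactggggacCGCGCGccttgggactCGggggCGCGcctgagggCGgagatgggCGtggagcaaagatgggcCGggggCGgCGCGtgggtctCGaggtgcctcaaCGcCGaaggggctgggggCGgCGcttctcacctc
Cdkn2b: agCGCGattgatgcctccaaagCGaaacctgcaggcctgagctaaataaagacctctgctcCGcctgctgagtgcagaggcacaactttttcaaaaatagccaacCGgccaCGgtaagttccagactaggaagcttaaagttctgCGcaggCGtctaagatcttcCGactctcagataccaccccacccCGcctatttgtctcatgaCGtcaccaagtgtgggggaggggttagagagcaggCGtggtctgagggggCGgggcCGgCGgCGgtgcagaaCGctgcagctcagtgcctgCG
The motif CATGNNNNNNCATG, which is its own reverse complement and so reads the same on both strands, holds the core letters of paired p53 half-sites. It occurs in 0.77% of the 27025 promoter windows (208 windows), and in 1 of the 49 windows matched to the 61 listed p53 target genes, that of Cdkn1a, from base 203. The window of Cdkn2a holds 45 CG dinucleotides and that of Cdkn2b holds 18, against a median of 7 over all windows. Windows with at least 45 of them make up 1.88% of the total, and windows with at least 18 make up 30.1%.

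Cdkn2a was at 6.56, 6.40 and 6.57 in p53-deleted cells, and at -3.05, -5.28 and -3.45 in WT cells. The p53-deleted arrays were almost identical over the stages, and the groups were far apart. The log2 difference was 10.44 ± 0.61 (SE, limma adjusted p = 5.66e-06), the highest of all named genes. Ezh2-deleted cells were intermediate at 1.10, 2.74 and 2.44, so that Cdkn2a was 4.42 higher in p53-deleted than in Ezh2-deleted cells of the same slide (adjusted p = 0.00699). Within the other slide, cells that lack both genes exceeded WT by 10.72 at DN2 and by 8.23 at DN3. The difference with slide as a block was 6.72 (adjusted p = 0.00125). A separate probe for Cdkn2a read 2.22, 2.03 and 2.35 in p53-deleted cells, and -5.47, -5.07 and -5.40 in WT cells. The files do not say which of the 2 Cdkn2a transcripts each probe reads. Within the array, Cdkn2a rose by 83.3 percentile points on average, the largest rise in rank of any called gene.

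Cdkn2b, which encodes the CDK4 and CDK6 inhibitor p15Ink4b, was at 1.44, 1.21 and 1.62 in p53-deleted cells, and at -2.85, -5.27 and -5.59 in WT cells. Ezh2-deleted cells lay at -2.13, -2.76 and -2.95, nearer to WT. The difference was 6.00 ± 0.48 between p53-deleted and WT cells (adjusted p = 3.49e-05), 4.04 between p53-deleted and Ezh2-deleted cells (adjusted p = 0.00414) and 5.11 with slide as a block (adjusted p = 0.00134). Cdkn1c, which encodes p57Kip2, was at 0.83, 1.45 and 1.09 in p53-deleted cells, and at -1.45, -1.59 and -1.5 in WT cells. It was 2.64 ± 0.24 higher than in WT (adjusted p = 6.39e-05), 1.17 higher than in Ezh2-deleted cells (adjusted p = 0.0303), and 2.20 higher with slide as a block (adjusted p = 0.00261). These 3 inhibitors were thus called higher in each of the 3 tests. Cdkn2c (p18Ink4c) and the retinoblastoma gene Rb1 rose across slides, by 1.05 and 1.20, but with slide as a block the values were 0.55 and 0.25, with adjusted p of 0.239 and 0.607. Of the 14 inhibitors listed, all measured, 5 rose and 0 fell across slides (limma, against 16.7% and 19.8% of all features). Their median difference was 0.96, against 0.09 over all features and 0.27 over named genes. At an unadjusted p under 0.05, 9 of the 14 differed in either direction, against about 6500 of the 14243 named genes.

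Cdkn1a moved the other way, without passing the test across slides. Its level was -1.41, 1.82 and 2.01 in p53-deleted cells, and -0.37, 2.99 and 2.44 in WT cells, lower in p53-deleted cells at each stage although the ranges overlap. The difference was -0.88 ± 0.32 (adjusted p = 0.0581). Against Ezh2-deleted cells of the same slide, at 0.46, 2.91 and 3.37, it fell by 1.44 (adjusted p = 0.0422). The block value was -0.90 (adjusted p = 0.0706). In every genotype Cdkn1a was lower at DN1 than at DN2 and DN3.

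The other regulators of p53 moved in both directions or not past the test. Mdm2 was at 4.84, 4.82 and 4.70 in p53-deleted cells, and at 4.65, 4.68 and 4.68 in WT cells, a difference of 0.12 ± 0.21 (adjusted p = 0.682). Mdm4, which encodes a partner of Mdm2, differed by 0.31 ± 0.23 (adjusted p = 0.319), but a separate Mdm4 probe, well above background on all 6 arrays, differed by -1.92, so its direction is uncertain. Of the 34 measured regulators 4 rose and 5 fell across slides. With slide as a block 2 were higher, Cdkn2a and Hexim1, and 1 was lower, Trp53. Hexim1, an inhibitor of the elongation kinase P-TEFb, was at 3.50, 3.75 and 4.06 in p53-deleted cells, and at 1.67, 1.57 and 1.89 in WT cells. It was 2.06 higher than in WT, 1.33 higher than in Ezh2-deleted cells (adjusted p = 0.0203) and 1.15 higher with slide as a block (adjusted p = 0.0299). Trp53bp2, which encodes a p53-binding protein, fell across slides by at least 4.97-fold, but it was as low in the Ezh2-deleted cells of the same slide, at -5.58, -5.01 and -5.41, and with slide as a block its difference was -0.04.

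Genes known as p53 targets did not move together. Of 57 measured, 4 rose and 10 fell across slides. The median difference was 0.17 (0.05 to 0.34 when 1 array was left out), against 0.09 over all features and 0.27 over named genes. Within the slide, against Ezh2-deleted cells, 1 was higher and 5 were lower. With slide as a block 1 was higher and 2 were lower. The block median was -0.09, against -0.08 over all features and -0.03 over named genes. Bax, a pore-forming death protein, was at 4.51, 4.38 and 4.11 in p53-deleted cells, and at 3.57, 3.66 and 4.33 in WT cells (difference 0.48, adjusted p = 0.162). Bbc3, which encodes the death-promoting protein Puma, was at 3.33, 3.78 and 3.20 in p53-deleted cells, and at 3.55, 1.66 and 1.64 in WT cells (difference 1.15, adjusted p = 0.0834). Ccng1, the cyclin G1 gene, differed by -0.06 ± 0.27 (adjusted p = 0.889). None of these 3 passed the test with slide as a block either, where their differences were -0.33, -0.19 and -0.62.

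A group of 4 p53 targets differed from both WT and Ezh2-deleted cells in the same direction. Phlda3, which encodes a repressor of the kinase Akt, was at -0.66, -0.18 and -0.87 in p53-deleted cells, and at 0.05, 0.43 and 1.27 in WT cells. Ezh2-deleted cells had far more of it, at 1.56, 3.11 and 3.12. Phlda3 fell by 1.16 against WT (adjusted p = 0.0324), by 3.16 against Ezh2-deleted cells (adjusted p = 0.003) and by 1.48 with slide as a block (adjusted p = 0.0404). Dcxr, a carbonyl reductase gene, was at -1.61, -1.19 and -3.22 in p53-deleted cells, and at -0.46, 0.34 and -0.38 in WT cells. It fell by 1.84 against WT (adjusted p = 0.00847) and by 3.20 against Ezh2-deleted cells (adjusted p = 0.00527), while the value with slide as a block, -1.56, had an adjusted p of 0.0501. The p53-deleted range of Dcxr lay below that of both other genotypes. Epha2, a receptor tyrosine kinase gene, was at -5.46, -4.25 and -3.63 in p53-deleted cells, never well above background. WT cells had it at -4.36, 0.70 and 0.35, well above background at DN2 and DN3. It was at least 5.03-fold lower than in WT (adjusted p = 0.00357) and differed by -3.91 with slide as a block (adjusted p = 0.00993). Without DN2 or without DN3 its adjusted p was 0.0568 and 0.0554. Phlda1 rose instead: it was at 5.02, 5.20 and 5.89 in p53-deleted cells, and at 2.18, 0.07 and 1.05 in WT cells. Its difference was 4.27 ± 0.48 across slides (adjusted p = 2.41e-04), 3.62 against Ezh2-deleted cells (adjusted p = 0.00605) and 2.99 with slide as a block (adjusted p = 0.011). Casp1, an inflammatory caspase gene, was lower only in the test against Ezh2-deleted cells, by 1.32 (adjusted p = 0.0408), and whether that differs from its -0.82 against WT was not tested.

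Outside the p53 lists, the genes described next were higher in p53-deleted than in WT cells across slides and higher with slide as a block. They were chosen for both after the values were seen, so the 2 fits are no separate evidence for them. Several of them were not well above background in WT cells. Foxb1, a forkhead transcription factor gene, was at 1.67, 1.4 and 1.76 in p53-deleted cells, and at -3.54, -5.06 and -4.86 in WT cells, never well above background there. It was at least 32.7-fold higher than in WT, 6.57 higher than in Ezh2-deleted cells (adjusted p = 6.24e-05) and 6.38 higher with slide as a block (adjusted p = 2.69e-04). Cells that lack both genes had Foxb1 at 2.17, 1.61 and 1.55. Sat2, a polyamine acetyltransferase family gene, was at 2.15, 2.0 and 2.04 in p53-deleted cells, and at -2.71, -5.08 and -4.14 in WT cells. Its difference was 6.04 ± 0.44 across slides, 6.57 against Ezh2-deleted cells of the same slide and 6.17 with slide as a block. A separate probe for Sat2 differed by 0.13 and was not well above background on any p53-deleted array. Lhx2, a LIM homeobox transcription factor gene and a known PRC2 target, was at 0.45, 0.14 and 1.23 in p53-deleted cells, and at -4.69, -5.16 and -3.01 in WT cells. Its difference was 4.89 ± 0.54 across slides (adjusted p = 2.06e-04) and 4.74 with slide as a block (adjusted p = 0.00302).

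Irs1, which links the insulin and IGF-1 receptors to PI3 kinase, was at 1.39, -0.68 and 0.14 in p53-deleted cells, and at -5.39, -4.98 and -4.11 in WT cells. It was at least 13.0-fold higher than in WT and 4.40 higher with slide as a block (adjusted p = 0.0133). Upk1b, a uroplakin gene, was at least 9.71-fold higher than in WT and 4.41 higher with slide as a block (adjusted p = 5.83e-04). Ajuba, which encodes a LIM-domain adaptor, was at -0.06, -1.81 and -0.05 in p53-deleted cells, and at -1.60, -4.64 and -3.79 in WT cells, and its ranges overlap. Without DN3 its adjusted p was 0.0895. Col1a2, a type I collagen gene, was at 4.83, 0.77 and 0.00 in p53-deleted cells, and at -2.75, -3.40 and -3.91 in WT cells, so its highest value by far was that of DN1. Gm525, a predicted gene, was among the brightest probes in p53-deleted cells at 9.33, 9.01 and 10.01, against -0.71, 2.16 and 4.48 in WT cells. Trnp1, which encodes a nuclear protein, was 5.26 higher than in WT and 5.22 higher with slide as a block. Among genes that rose both across slides and with slide as a block, the 15 highest block values, a set chosen after the values were seen, ranged from 4.27 to 6.72 and also held Cdkn2a, Cdkn2b, Gm266, Arsi, Bex1 and Pwwp3b.

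Among genes that fell in both fits, the 15 lowest block values, chosen in the same way, ranged from -4.48 to -2.69, and that of Trp53, -4.02, was next to the lowest. The lowest was 2610507I01Rik, at -5.40, -5.37 and -3.91 in p53-deleted cells, and at -0.95, -0.49 and -0.17 in WT cells. It was at least 7.48-fold lower than in WT (adjusted p = 6.79e-05), and its difference was -4.48 with slide as a block (adjusted p = 5.83e-04). Il18, the cytokine interleukin 18, was at -5.14, -4.21 and -5.01 in p53-deleted cells, never well above background, and at -0.59, 0.39 and -0.49 in WT cells. It was at least 9.23-fold lower than in WT, differed by -3.0 from Ezh2-deleted cells (adjusted p = 0.0023) and by -2.72 with slide as a block (adjusted p = 0.00228). Bcl11a, a transcription factor of early lymphoid progenitors, was at -2.54, -3.16 and -3.09 in p53-deleted cells, and at 0.87, 2.26 and 0.72 in WT cells. It fell by 4.21 across slides (adjusted p = 1.12e-04) and by 2.82 with slide as a block (adjusted p = 0.00707), and a separate probe for it fell by 5.23 across slides. Wdfy4, known for its part in cross-presentation by dendritic cells, was at 1.03, -1.08 and -0.64 in p53-deleted cells, and at 2.57, 4.60 and 4.66 in WT cells. Spns3 fell by 3.13 across slides and by 3.21 with slide as a block. Islr, Smim5, Ybx2, Rgs18, Sytl4, Olfr56, I830077J02Rik, 9130015A21Rik and Epha2 made up the rest. The call of 9130015A21Rik across slides was lost without any one of the DN2 and DN3 arrays of either genotype (limma, adjusted p from 0.0533 to 0.152), and without the p53-deleted DN3 array its difference was -1.21. Without DN2 or without DN3, Olfr56 had an adjusted p of 0.0733 and 0.0709. Ezh2-deleted cells carried Xist, which coats and silences an X chromosome in female cells, and had Y-linked transcripts at background, while p53-deleted and WT cells both had the reverse. Of the 4 sex-linked transcripts measured, 0 rose and 2 fell across slides (limma, 2 at an unadjusted p under 0.05). Xist differed by -7.46 between p53-deleted and Ezh2-deleted cells and by -4.07 with slide as a block. How much this adds to the values of other genes in those fits, among them the X-linked Bex1, Bex4, Pwwp3b and Sytl4, was not tested.

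**Figure D2:**
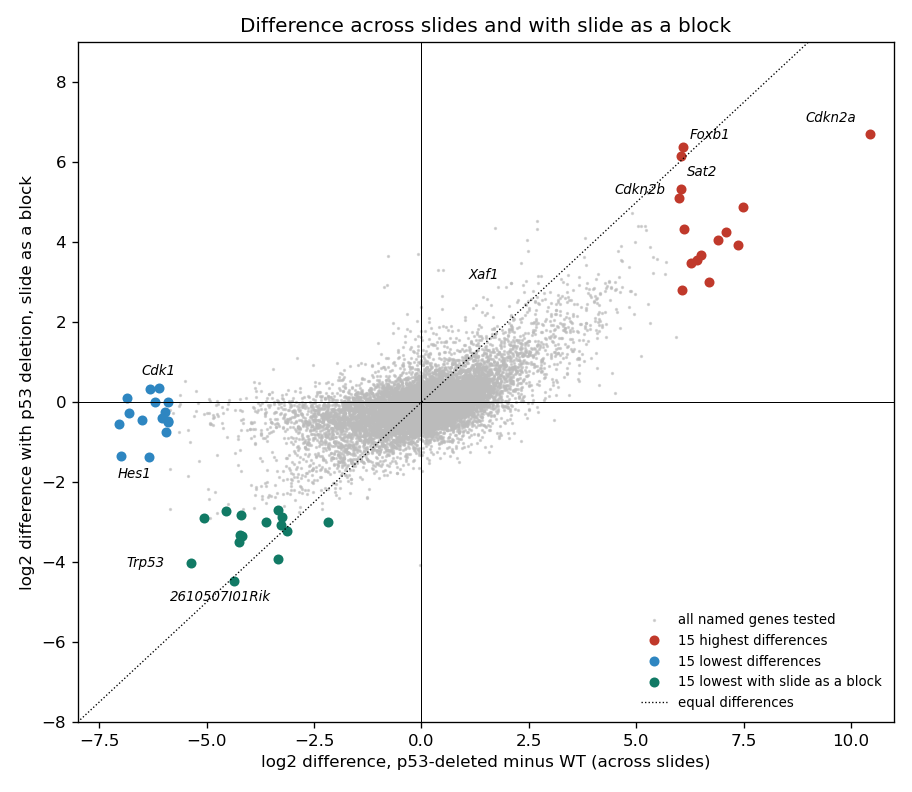
Log2 difference of each named gene between p53-deleted and WT cells across slides (horizontal axis) and with p53 deletion when slide is a block (vertical axis). The dotted line marks equal differences. Red points are the 15 highest and blue points the 15 lowest differences across slides, and green points are the 15 lowest with slide as a block: Foxb1 and Sat2 lie near the dotted line, while Cdk1, at -6.31 across slides, lies at 0.33 with the block.

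The largest falls across slides were far smaller or absent with slide as a block, and none of them passed the test there. Hes1, which encodes the transcriptional repressor that Notch signalling induces in thymocytes, was at -5.38, -4.30 and -4.22 in p53-deleted cells, and at 0.45, 3.28 and 3.32 in WT cells. It was at least 55.2-fold lower than in WT (fitted difference -6.98 ± 0.45, adjusted p = 9.91e-06). In Ezh2-deleted cells on the same slide it was at -5.15, -2.87 and -1.63, which is 5.57 below WT. The difference between p53-deleted and Ezh2-deleted cells was -1.42 (adjusted p = 0.126), and with slide as a block it was -1.35 (adjusted p = 0.0821). Cells that lack both genes, measured on the slide of WT at DN2 and DN3, had Hes1 at 1.13 and 2.53, a difference from WT of -2.15 and -0.79.

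The other members of the 15 lowest had the same pattern. Ppp5c, a serine/threonine phosphatase gene, was at -4.26, -3.59 and -4.29 in p53-deleted cells, and at 2.18, 3.18 and 3.61 in WT cells, at least 84.0-fold lower. Ezh2-deleted cells had Ppp5c at -5.21, -2.44 and -2.71, and cells that lack both genes differed from WT by -0.38 at DN2 and by -0.50 at DN3. Cdk1, the kinase that drives entry into mitosis, was at -4.06, -4.98 and -3.81 in p53-deleted cells, and at 0.43, 2.89 and 2.78 in WT cells, with Ezh2-deleted cells at -5.61, -3.33 and -3.87. Separate probes for Cdk1 differed by -4.10 and by 0.48, in opposite directions. Rps21, a ribosomal protein gene, was at 2.27, 1.72 and 1.68 in p53-deleted cells, and at 7.92, 8.03 and 7.82 in WT cells, while cells that lack both genes had 7.0, 7.23 and 7.26. For all 15 the difference with slide as a block lay between -1.37 (Smad7) and 0.35 (Ndufaf8), and none passed the test there. A separate probe for Unkl differed by 0.30 instead of -6.50. The other 9 were BC048507, Slc25a22, Unkl, E2f4, Eprs, Mc3r, Zfp981, Oaf and Zfp985.

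Among the 15 highest across slides, every gene except Sdc1 was also higher with slide as a block. Sdc1, the syndecan gene, had a block value of 2.80 with an adjusted p of 0.0947. Cnnm1, Lgals7, Fbln1, Nectin1, Bex4 and Pdlim4 were at least 3.0 higher with the block. Lgals7, which encodes galectin 7, was at 2.14, 1.24 and 3.51 in p53-deleted cells, and at -3.79, -5.09 and -4.95 in WT cells, and was 6.46 higher than in Ezh2-deleted cells (adjusted p = 0.00232). In cells that also lack Ezh2 it was at -2.76, -3.09 and -2.89, much lower. For Bex1, Bex4, Cnnm1, Fbln1, Nectin1, Pdlim4 and Pwwp3b, the p53-deleted and Ezh2-deleted cells of the same slide did not differ at the threshold. Their limma adjusted p ran from 0.0527 to 0.691, and their block values draw in part on cells that lack both genes set against WT. Bex1, for example, was at 3.29, 3.01 and 4.19 in p53-deleted cells and at 2.14, 4.71 and 4.94 in Ezh2-deleted cells, against -2.99, -2.77 and -2.07 in WT cells.

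**Figure D3:**
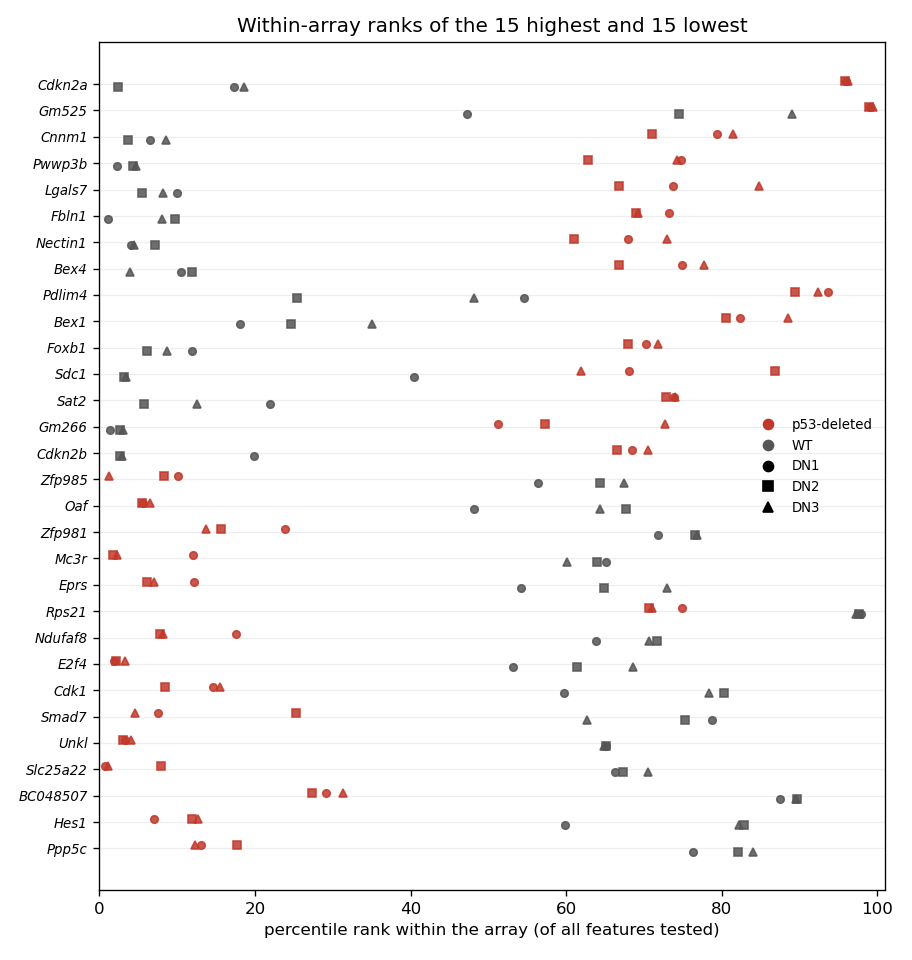
Percentile rank within each array of the 15 highest and 15 lowest named genes, with p53-deleted arrays in red, WT arrays in grey and a symbol for each stage. The arrays of both genotypes are separate for every gene shown, and Gm525, whose WT arrays are spread widely, and Rps21 moved by fewer places than most.

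Ranks within an array do not depend on its scale, and Cdkn2a led by rank as it did by difference, while the order below it changed. After Cdkn2a the largest rises were those of Cnnm1, by 71.1 percentile points, Lgals7, by 67.3, Pwwp3b, by 66.8, and Bex4, by 64.4. In the other direction Ppp5c fell by 66.5 points, Slc25a22 fell by 64.8, Hes1 fell by 64.4 and Unkl fell by 61.5. Trp53 was at a lower rank on each p53-deleted array than on the WT array of its stage. Over all features the median shift was 1.03 points.

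Among Notch target genes the direction was mixed. Of 17 measured, 4 rose and 2 fell across slides, and 0 were called with slide as a block (limma, 6 at an unadjusted p under 0.05), where the median was -0.13. Against Ezh2-deleted cells 1 was higher and 3 were lower, with a median of -0.74. Hey1, a related repressor gene, was at -3.05, -1.47 and -2.10 in p53-deleted cells, and at -0.16, 0.95 and 0.17 in WT cells, and it fell by 2.07 against Ezh2-deleted cells as well (adjusted p = 0.0347). Notch3, a receptor gene that is also a Notch target, was at -0.07, 1.06 and 3.43 in p53-deleted cells, and at 0.05, 2.92 and 5.37 in WT cells. It climbed with stage in both genotypes, its difference from WT was -1.30 (adjusted p = 0.0604), and it fell by 2.41 against Ezh2-deleted cells (adjusted p = 0.0286). Il2ra differed by -0.80 from WT (adjusted p = 0.175) and fell by 1.93 against Ezh2-deleted cells (adjusted p = 0.0429). Heyl rose by at least 7.76-fold across slides, and was 1.96 with slide as a block (adjusted p = 0.0944).

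Genes that PRC2 is known to silence included some of the strongest rises. Of 20 measured of 29 listed, 9 rose and 3 fell across slides with a median of 0.07, and 9 were higher and 1 was lower with slide as a block, where the median was 0.81 against -0.08 over all features. Over all features 1.72% were higher in that fit. Within the slide, against Ezh2-deleted cells, 5 were higher and 3 were lower, with a median of -0.38. The block fit also draws on the cells that lack both genes, whose medians were 3.14 above WT at DN2 and 2.52 at DN3, and 5 of the 20 genes were at background in both p53-deleted and WT cells. The list holds Cdkn2a, Cdkn2b and Cdkn1c, described above. For Hoxa10 and Lin28b the block values, 1.16 and 2.03, come from the cells that also lack Ezh2, since both genes stayed at background in p53-deleted and in WT cells. Hoxa7, a homeobox gene of early progenitors, fell: it was at -3.99, -1.95 and -2.29 in p53-deleted cells, and at 0.83, 3.19 and 2.62 in WT cells (difference -4.96, adjusted p = 1.7e-05). The difference was -3.90 against Ezh2-deleted cells and -2.17 with slide as a block (adjusted p = 0.0044). The transcripts of PRC2 subunits themselves were near WT, with 2 of 11 higher across slides (Jarid2 and Phf19) and 0 called with slide as a block (limma, 1 at an unadjusted p under 0.05). Ezh2 was at 3.61, 3.36 and 3.84 in p53-deleted cells, and at 2.36, 4.16 and 4.43 in WT cells.

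The interferon response genes were the list with the largest share of rises across slides, 22 of 27 measured, with 0 falls and a median of 1.18 (limma, 25 at an unadjusted p under 0.05 in either direction). Oas1a, an antiviral RNA sensor gene, was at 5.90, 4.87 and 5.04 in p53-deleted cells, and at 3.88, 3.13 and 1.83 in WT cells. Irf7, a transcription factor of the interferon response, was at 2.20, 1.25 and 0.74 in p53-deleted cells, and at 0.76, -1.13 and -1.63 in WT cells. Within slides the medians were near 0. The median was -0.06 against Ezh2-deleted cells, and cells that lack both genes differed from WT by -0.08 at DN2 and 0.35 at DN3. With slide as a block 1 of 27 was higher and 0 were lower, with a median of -0.05. The 1 was Xaf1, an apoptosis-promoting interferon target, at 4.93, 4.61 and 4.36 in p53-deleted cells, and at 2.89, 2.49 and 2.24 in WT cells. Ezh2-deleted cells had Xaf1 at -0.76, -0.42 and -0.60, below WT, so its value of 2.99 with slide as a block rests on that genotype too. A separate Xaf1 probe differed from WT by 0.74. The gene lies on chromosome 11, 80 measured genes from Trp53.

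More components of the T cell receptor and its signalling rose than fell across slides. Of 34 measured, 13 rose and 1 fell across slides, with a median of 0.97, and 0 were called with slide as a block (limma, 7 at an unadjusted p under 0.05), with a median of 0.04. Against Ezh2-deleted cells of the same slide 4 were higher, Cd4, Cd5, Cd8b1 and Cd28, and 0 were lower (limma, 11 at an unadjusted p under 0.05 in either direction), against 1.71% of all features higher, with a median of 0.27, and of 0.71 at DN2. Cd5, a negative regulator of receptor signals, was at 6.90, 6.02 and 5.68 in p53-deleted cells, and at 5.45, 3.15 and 2.77 in WT cells. It was 2.41 higher than in WT (adjusted p = 5.9e-04) and 1.59 higher than in Ezh2-deleted cells (adjusted p = 0.030). Cd2, an adhesion receptor gene, was at 7.35, 7.0 and 6.01 in p53-deleted cells, and at 6.33, 0.03 and 1.60 in WT cells, so that it differed far more at DN2 and DN3 than at DN1. Among T-lineage transcription factors 5 of 22 rose and 1 fell across slides, against 16.7% and 19.8% of all features. Id3, an inhibitor of E proteins, was at 5.35, 4.30 and 5.08 in p53-deleted cells, and at 3.21, 1.94 and 2.75 in WT cells. It rose in all 3 tests, by 2.28, by 1.43 against Ezh2-deleted cells (adjusted p = 0.037) and by 1.14 with slide as a block (adjusted p = 0.048).

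Regulators of survival and growth showed few changes that were also called with slide as a block. For the counts across slides in these lists, the background is 16.7% of all features higher and 19.8% lower. Of 16 BCL2 family genes 4 rose and 1 fell across slides. Bok, a pore-forming member, was at 1.22, 0.23 and 1.70 in p53-deleted cells, and at -2.39, -2.62 and -5.66 in WT cells (difference 4.60, adjusted p = 0.0042), and was 3.14 higher with slide as a block (adjusted p = 0.046). Bcl2l14 fell by 1.76 across slides and by 1.83 with slide as a block (adjusted p = 0.010). The survival gene Mcl1 rose by 0.77, with 0.17 as its value with slide as a block. Of 22 genes of the IL-7 receptor and JAK-STAT pathway 5 rose and 1 fell, and the receptor gene Il7r itself was at 5.06, 6.49 and 4.10 in p53-deleted cells, and at 4.90, 2.73 and 2.22 in WT cells. Heat-shock genes counted 4 rises and 1 fall of 19.

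**Figure D4:**
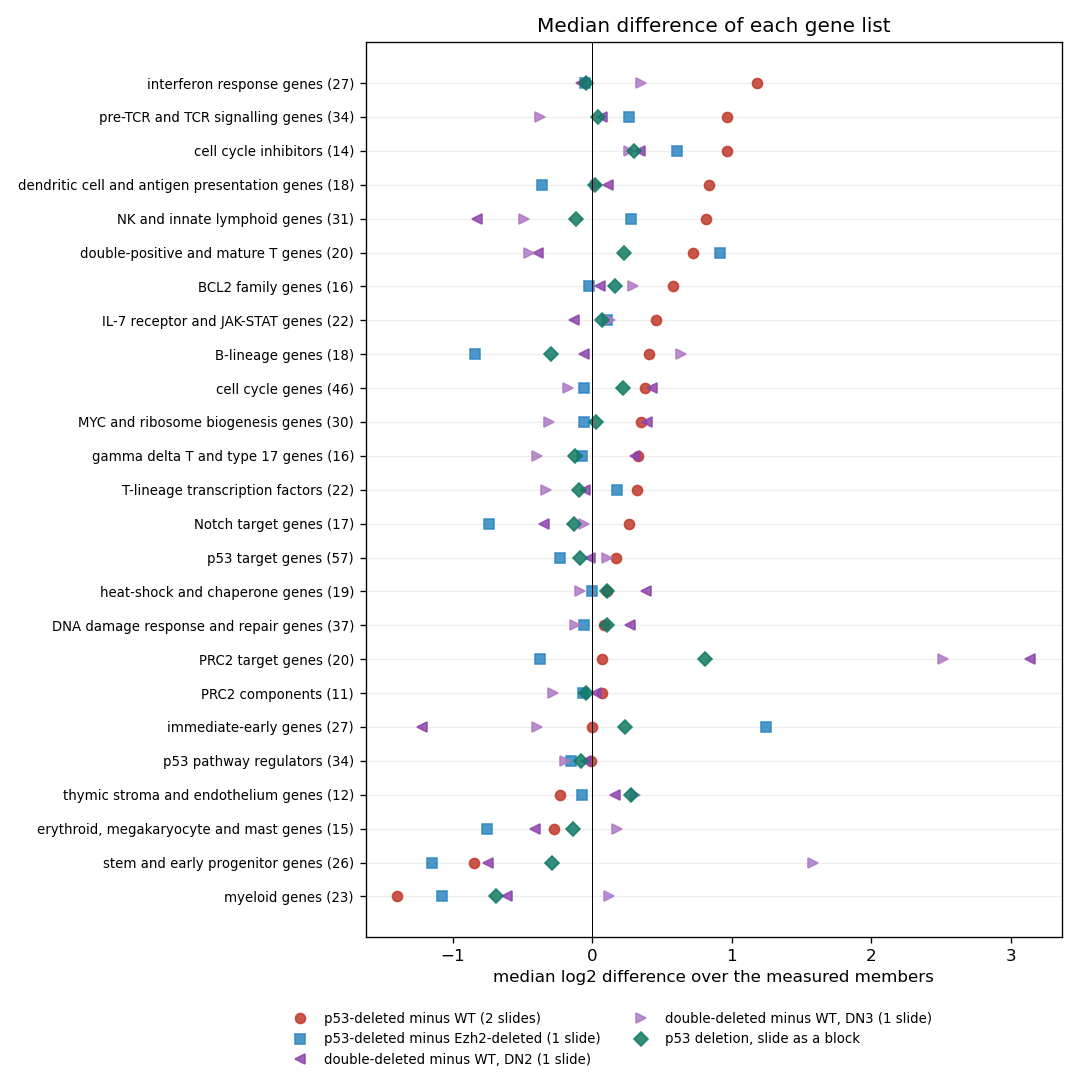
Median log2 difference of the measured members of each gene list (number in brackets). The settings are p53-deleted against WT cells, the comparisons within 1 slide, and slide as a block. Interferon response genes lie at 1.18 across slides and between -0.08 and 0.35 in the other settings, whereas PRC2 target genes reach 2.52 to 3.14 in cells that lack both genes.

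Several lists differed between p53-deleted and WT cells in opposite ways at different stages, with 1 array per genotype and stage and so no test. Cell cycle genes had a median difference of 1.97 at DN1, -0.63 at DN2 and -0.18 at DN3. In p53-deleted cells the median level of these 46 genes varied little over the stages, between 3.67 and 3.95, whereas in WT cells it ranged from 1.89 to 4.19. DNA damage and repair genes went the same way, at 1.01, -0.21 and -0.30, as did MYC and ribosome biogenesis genes, at 1.33, 0.10 and -0.47. Over all 3 stages 1 cell cycle gene rose across slides (Ccnd3, by 0.87) and 2 fell (Cdk1 and Aurkb), and 0 of 46 were called with slide as a block (limma, 2 at an unadjusted p under 0.05). Aurkb, a mitotic kinase gene, was 2.71 below WT in Ezh2-deleted cells too.

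Progenitor genes had medians of -1.55, -1.43 and 0.73 at DN1, DN2 and DN3. Cd34, a marker of early progenitors, was at -4.14, -3.13 and -5.26 in p53-deleted cells, and at 3.60, 3.74 and -5.57 in WT cells, so that of these 6 arrays it was high on those of WT DN1 and DN2 alone. A separate Cd34 probe went the other way, at -1.41, -1.21 and -0.71 in p53-deleted cells and at -2.41, -2.18 and -3.74 in WT cells, so the direction of Cd34 is uncertain. Erg, a transcription factor of stem cells, was at -5.71, -3.68 and -2.65 in p53-deleted cells, and at -1.76, 1.14 and -0.55 in WT cells. It fell by 3.63 across slides (adjusted p = 0.0014), by 3.35 against Ezh2-deleted cells (adjusted p = 0.015) and by 2.52 with slide as a block (adjusted p = 0.014). Of 26 measured, 2 rose and 7 fell across slides, with a median of -0.85, or -0.38 with genes at background taken at their bound. Leaving out 1 array at a time moved this median between -1.36 and -0.34. The genes called with slide as a block were Slamf1, higher, and Bcl11a and Erg, lower.

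Markers of other cells that the gates could hold moved with stage as well. At DN2, the medians were 3.83 for gamma delta T and type 17 genes, 2.66 for NK and innate lymphoid genes and 2.24 for dendritic cell and antigen presentation genes. At DN1 the same lists were at -2.0, -0.49 and -0.23, and at DN3 they were at 0.12, 0.27 and 0.22. Cxcr6, a chemokine receptor of innate-like lymphocytes, was at 6.16, 7.35 and -0.42 in p53-deleted cells, and at 5.75, -1.85 and -3.19 in WT cells. H2-Eb1, an MHC class II gene, was at 6.07 in p53-deleted DN2 cells, against -0.61 in WT DN2 cells. Some dendritic cell markers went the other way. Itgax was at -0.97 in p53-deleted DN2 cells, against 0.12 in WT DN2 cells, and Siglech was at 7.02 in p53-deleted DN2 cells, against 8.70 in WT DN2 cells. Sox13, a gamma delta T marker, was at 0.67 in p53-deleted DN2 cells, against 1.45 in WT DN2 cells. The defining NK markers Ncr1, Klrb1c and Klrd1 were at -1.55, 0.79 and -0.95 in p53-deleted DN2 cells, all well above background, and none was so in WT DN2 cells. At DN3 all 3 were at background in both genotypes. The Ezh2-deleted DN2 array, on the slide of the p53-deleted ones, also had H2-Eb1 at 4.46 and Cxcr6 at 4.22. The part of such cells in the other DN2 differences was not tested.

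Myeloid genes counted 6 falls and 1 rise of 23, against 19.8% of all features that fell, with a median of -1.40, or -0.51 with genes at background taken at their bound. Leaving out 1 array at a time moved this median between -1.77 and -0.61. Against Ezh2-deleted cells 1 was higher and 2 were lower, and with slide as a block 2 were higher and 1 was lower. Across slides the members ran from -5.43 to 3.53. Their median was -2.36 at DN1, -0.41 at DN2 and 0.26 at DN3. Mpo, the granule enzyme myeloperoxidase, was at 1.37 in p53-deleted DN1 cells and at -3.51 in p53-deleted DN2 cells, against 5.11 and 4.11 in WT cells of those stages. Lyz1, a lysozyme gene, was not well above background on any p53-deleted array, and fell by 3.40 against Ezh2-deleted cells (adjusted p = 0.0045) and by 1.85 with slide as a block (adjusted p = 0.032). B-lineage genes counted 1 rise and 4 falls of 18, double-positive and mature T genes 4 rises and 0 falls of 20 (9 at an unadjusted p under 0.05), erythroid, megakaryocyte and mast genes 0 rises and 1 fall of 15 (limma, 3 at an unadjusted p under 0.05), and stroma and endothelium genes 2 rises and 3 falls of 12. Immediate-early genes, which respond to cell handling among other stimuli, had medians of -1.10, 1.00 and 0.69 over the stages.

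**Figure D5:**
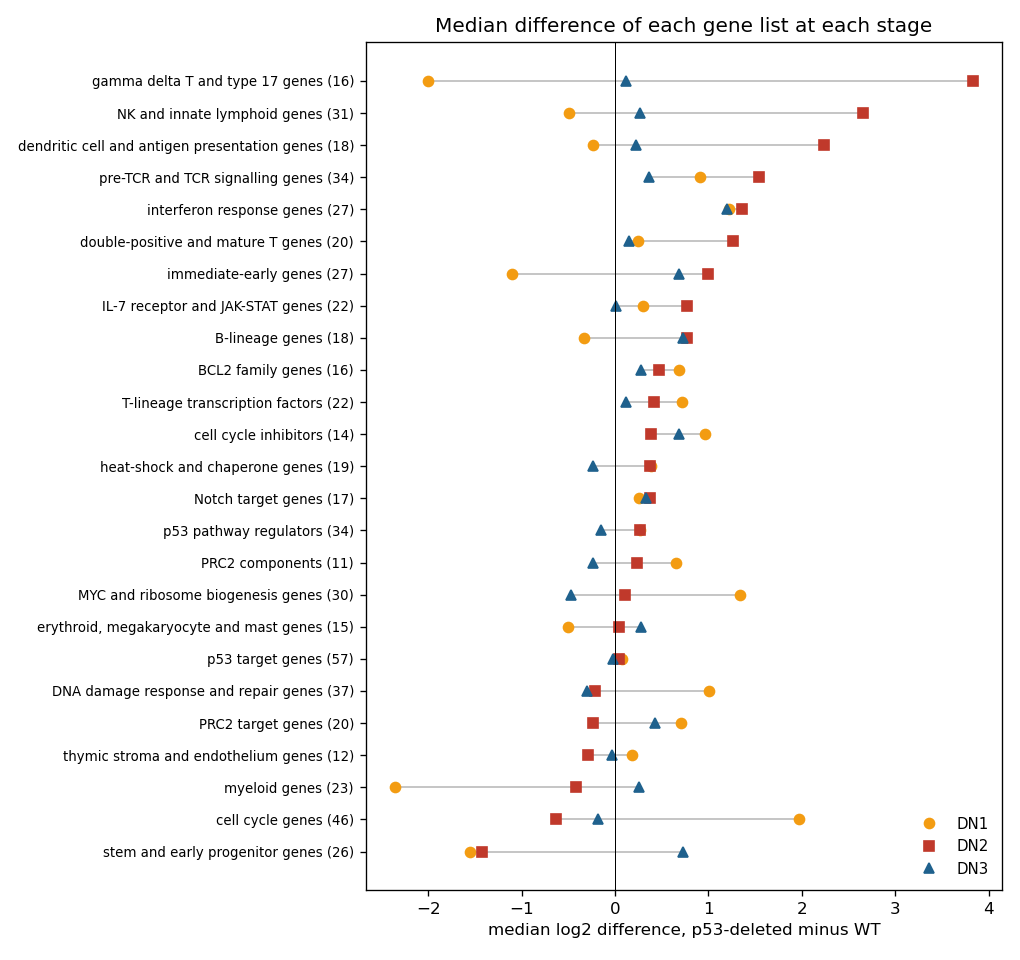
Median log2 difference between p53-deleted and WT cells of each gene list at DN1, DN2 and DN3, with 1 array of each genotype per stage. The lines join the lowest and highest stage: gamma delta T and type 17 genes span -2.0 to 3.83, while interferon response genes lie between 1.20 and 1.36 at all stages.

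Single genes that differed at 1 stage alone, by 4-fold or more there and by under 1.4-fold at both others, numbered 148 of 14243 named genes at DN1 (1.04%), 105 at DN2 (0.737%) and 41 at DN3 (0.288%). At DN2, 93 of the 105 were higher in p53-deleted cells and 12 were lower. The largest was Vipr1, the receptor for vasoactive intestinal peptide, at 2.33 in p53-deleted DN2 cells and -5.43 in WT DN2 cells, and Klrb1a and Klrb1c, both NK receptor genes, were among the 5 largest. At DN1, 100 were higher and 48 were lower. Adamdec1, a metalloprotease gene of macrophages and dendritic cells, was at -5.61 in p53-deleted DN1 cells and 2.37 in WT DN1 cells. At DN3, 17 were higher and 24 were lower, among them Lrrc34, at -5.30 in p53-deleted cells and 0.11 in WT cells. These counts rest on 1 array of each genotype and have no replicate check.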

How the data were processed

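Agilent 1-colour arrays were measured from sorted thymocytes. Per the file headers, the authors used Feature Extraction 10.7.1.1, whose deposited processed signal is the background-subtracted, detrended intensity of each spot, with flags for spots well above background. The deposited value table holds each processed signal divided by 1 constant per array, judged from its values. Here the log2 of the deposited processed signal was taken relative to the 75th percentile of the array. Control spots and outliers were left out, and 59305 spots gave 55681 probes, of which 27656 had 1 gene symbol through RefSeq accessions (GRCm38.p6) and 28025 had none. Probes well above background on at least 2 arrays were tested, and the brightest probe stood for a gene: 27056 features, 14243 of them named. No probe was saturated. The number of arrays limits the precision.

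Genotype and stage were fitted with limma 3.58.1 in R 4.3.3 over 12 arrays (6 residual and 2.92 prior degrees of freedom), with Benjamini-Hochberg adjustment over all features. The added fit with slide as a fixed block had 5 residual degrees of freedom and assumes no interaction of the deletions. The fits were tested on simulated data without a slide effect or an interaction of the deletions, so that test cannot speak to either. Genes named are Trp53, Cdkn2a and Hes1, the 15 highest and 15 lowest called differences, list members by size or position in the list, genes of 1 stage, and the largest rank shifts. The 15 highest and lowest with slide as a block, and some list members, were chosen after their values were seen. The members and the 26 lists were chosen with earlier results of these data known. Alternatives covered the scaling, background correction, filter, arrays in the fit, stage term, probe choice, slide and left-out arrays. The labels do not say that stages came from separate mice.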

Additional observations from a re-analysis of the deposited data

Results flagged for a closer look

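For 4 gene lists the median difference between p53-deleted and WT cells was over 0.5 in opposite directions at different stages. The gap between the highest and lowest stage was 5.84 for gamma delta T and type 17 genes, 2.60 for cell cycle genes, 2.29 for stem and early progenitor genes and 2.10 for immediate-early genes. With 1 array per genotype and stage, these differences between stages were not tested.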

How the results depend on the processing

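The number of features called depended on the scaling, the fit and the arrays used. Against WT, spike-in scaling gave 168 higher and 385 lower, normexp gave 8450 higher, a filter on all 6 arrays gave 3212 lower, the 6 arrays alone gave 1466 higher and 3398 lower, and slide as a block, added after seeing the data, gave 466 higher and 401 lower. Leaving out DN2 gave 1496 higher and 3164 lower, and leaving out DN3 gave 1919 higher. Against Ezh2-deleted cells, spike-in scaling gave 4852 higher and 12 lower, normexp 122 and 213, the 6 arrays alone 30 and 62, no stage term 256 and 321, leaving out DN2 57 and 90, and leaving out DN3 28 and 41, while leaving out DN1 gave 271 higher. Leaving out 1 array at a time gave 2660 (WT DN2 left out) to 4089 higher and 4278 to 5101 lower against WT, and 1.1e+02 (to 2 digits; Ezh2-deleted DN2 left out) to 448 higher and 181 to 595 lower against Ezh2-deleted cells. Trp53 and Cdkn2a stayed called in their direction under every alternative run. Hes1 did so except with slide as a block (-1.35, adjusted p = 0.0821). Under normexp, the differences were smaller: -2.15 for Trp53, 7.72 for Cdkn2a and -3.38 for Hes1. Signs turned for Mdm2 under normexp (-0.31) and the block (-0.0192), for Unkl (0.30) and Cdk1 (0.48) under the filter on all 6 arrays, which takes another probe, and with the block for BC048507 (0.12), Cdk1 (0.33), Ndufaf8 (0.35) and Zfp985 (0.0017). Epha2 lost its call under spike-in scaling, normexp, no stage term and without DN2 or DN3, and Cdkn1c (adjusted p = 0.314), Wdfy4, Spns3, Ybx2 and I830077J02Rik under spike-in scaling. Ajuba lost it under spike-in scaling and without DN3, Rgs18 under spike-in scaling and no stage term, Smim5 with no stage term, Olfr56 under spike-in scaling, normexp and without DN2 or DN3, and 9130015A21Rik in 12 settings. The fitted block ended the call of Sdc1 and of the 15 lowest genes. Cdkn1a passed under normexp (adjusted p = 0.0186), the 6-array filter (0.0361) and a random slide block (0.031). Spike-in scaling moved the median of all features to 0.36. Leaving out 1 array moved list medians between -0.12 and 0.81 for cell cycle and -0.21 and 0.51 for Notch targets. Separate probes gave smaller differences for Irs1 (1.86), Fbln1 (3.41), Erg (-1.97) and Klrb1c (0.49). Why these counts moved was not tested, beyond the fewer arrays in some fits.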

Other observations

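Genes next to Trp53 on chromosome 11 were counted in windows chosen after the values were seen, in the order of RefSeq genes. With slide as a block, 11 of the 100 named genes within 50 measured genes on each side were called (5 higher and 6 lower). Within 100 on each side, 15 of 200 were called (7.5%), against 3.67% of 1007 genes on the rest of the chromosome and 3.71% of 13035 genes on other chromosomes. Sat2, 2 places from Trp53, was 6.17 higher with the block, and Tmem88, 4 places away, differed by -2.02 (limma adjusted p = 0.0377). Ybx2, 25 places away, differed by -3.06, and Myh10, 27 places away, by 2.16. Further out, Xaf1, 80 places away, differed by 2.99, and Spns3, 85 places away, by -3.21. The nearest neighbours, Wrap53 and Atp1b2, differed by -0.43 and -0.43, with adjusted p of 0.317 and 0.574. These counts are a description, with no test.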
